A study of Mus musculus with 8 samples.

Results

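The insulin-like growth factor (IGF) axis was described here by 10 genes, chosen by name: Igf1, Igf1r, Irs1, Pappa and the binding protein genes Igfbp2, Igfbp3, Igfbp4, Igfbp5, Igfbp6 and Igfbp7. All 10 were found among the 53465 gene identifiers of the table, and all 10 were among the 14369 genes that passed the filter on low counts. The RNA came from mesenchymal stem cells (MSCs) from the hind limb bones of wild-type male C57BL/6N mice aged 3 to 5 months. The MSCs were cultured either in hypoxia (2% O2, 5% CO2) or in normoxia (21% O2, 5% CO2), with 4 samples per group, numbered 1 to 4 in each, and per the labels the cells were sorted on day 12. According to the methods of the study, cells of both groups first grew out of collagenase-treated bone pieces in hypoxia, were sorted as CD45-, Ter-119-, Sca-1+ and CD140a+, and were then divided between the oxygen levels. The comparison asks how the RNA of the IGF axis differed between MSCs kept in hypoxic culture and MSCs moved to normoxic culture after the sort. No protein, secretion or receptor activation was measured in these libraries, and in RNA from whole cultures fewer cells of a type and less RNA per cell cannot be told apart.

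IGF1 is a secreted growth factor that acts on the receptor tyrosine kinase IGF1R. IRS1 is a docking protein that is phosphorylated by the active receptor and recruits PI3-kinase, upstream of AKT, mTOR and the FOXO transcription factors. Outside the cell, the binding proteins hold IGFs and decide how much ligand reaches the receptor, and the protease pappalysin (PAPP-A, encoded by Pappa) cleaves binding proteins, IGFBP4 above all, to release the ligand. In bone, the axis is known for its part in the growth and matrix production of osteoblast-lineage cells.

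The libraries held between 12898291 and 25132141 counts, and hypoxia replicate 1 stood apart with the highest total. Values below are counts per 1000000 counts (CPM) scaled by edgeR's TMM factors, with log2 CPM for differences, which are given as normoxia minus hypoxia with their standard error (SE). Replicates of a group differed by more than counting error, with a chi-square per degree of freedom of 3.67 to 19.1 over the genes tested. The sorting markers were detected in every sample, Pdgfra (which encodes CD140a) at 175 ± 25.4 CPM in hypoxia and 206 ± 19.7 CPM in normoxia, and Ly6a (Sca-1) at 434 ± 46.5 and 393 ± 49.6 CPM (SD, n = 4).

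Of the 10 genes, 6 differed between the oxygen levels at an adjusted p under 0.05, 3 higher and 3 lower in normoxia (limma-trend with Benjamini-Hochberg adjustment). Igf1, Igfbp2 and Igfbp7 were higher in normoxia-cultured MSCs, and Igfbp4, Igfbp6 and Irs1 were lower. The background was high, since 34.6% of all genes tested passed the same threshold (18.0% higher, 16.5% lower). For 4 of the 10 genes the 2 groups shared no part of their range (Igf1, Igfbp2, Igfbp4 and Igfbp7), against 32.6% of all genes tested. The median difference of the 10 genes was -0.06 on the log2 scale, and that of all genes tested was 0.0049. Scaling by library totals alone changed the split to 3 higher and 1 lower, because Igfbp6 and Irs1 no longer passed.

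**Figure D1:**
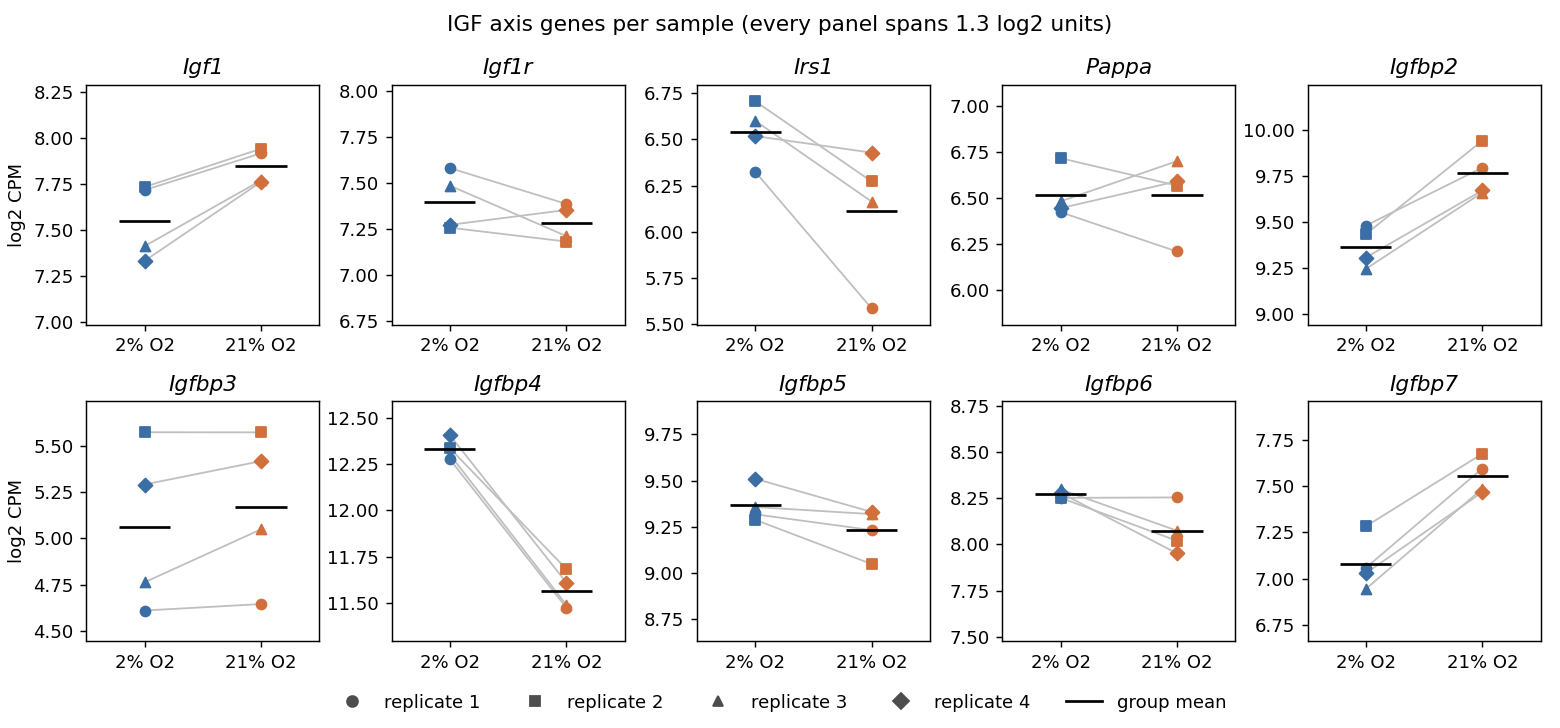
log2 CPM of the 10 IGF axis genes in each sample, with 1 panel per gene, hypoxia (2% O2, blue) on the left and normoxia (21% O2, orange) on the right. Marker shapes stand for replicate numbers, grey lines join samples of the same number and black lines are group means. All panels span the same range of log2 units, and the widest separation is that of Igfbp4, between 12.33 ± 0.06 and 11.56 ± 0.10 (SD, n = 4).

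Levels were first ordered within each group as CPM per kb of merged exon length, which allows genes of different length to be compared. Igfbp4 led in both groups, at 1168 ± 46.3 CPM per kb in hypoxia and 686 ± 47.9 in normoxia (SD, n = 4), at the percentiles 99.8 and 99.7 of all genes tested. It was followed by Igfbp2 (358 ± 27.0 and 473 ± 44.0 CPM per kb) and Igfbp6 (278 ± 4.34 and 243 ± 22.5 CPM per kb). Igfbp7 lay at 112 ± 11.6 CPM per kb in hypoxia and 156 ± 10.7 in normoxia, and Igfbp5 at 110 ± 7.76 and 100.4 ± 8.78. The sample values of Igfbp7 and Igfbp5 overlapped in hypoxia, so that their order was not resolved there, and separated in normoxia. The transcript of the ligand, Igf1, came next, at 19.0 ± 2.70 CPM per kb in hypoxia and 23.3 ± 1.53 in normoxia. The remaining members were close together in hypoxia: Igfbp3 at 11.0 ± 3.46, Irs1 at 10.2 ± 1.12, Igf1r at 10.1 ± 1.12 and Pappa at 8.32 ± 0.81 CPM per kb. In normoxia the order of these 4 was Igfbp3 (11.8 ± 3.23 CPM per kb), Igf1r (9.29 ± 0.65), Pappa (8.36 ± 1.16) and Irs1 (7.72 ± 1.79). Neighbours among these 4 genes overlapped in both groups.

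**Figure D2:**
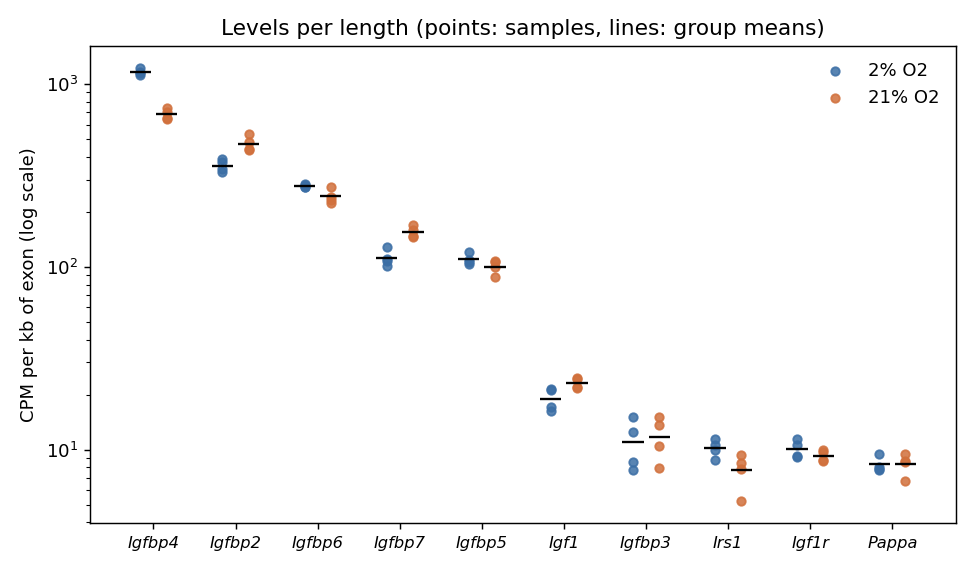
CPM per kb of exon on a log axis for the 10 genes, ordered by their mean in hypoxia. Points are samples (hypoxia blue, normoxia orange) and black lines are group means, with Igfbp4 near 1168 CPM per kb in hypoxia and the lowest 4 genes between 7.72 and 11.8 CPM per kb.

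Igfbp4, which encodes the PAPP-A-sensitive binding protein known to restrain IGF action in bone, had the largest difference among the members. It is annotated on the plus strand at chr11:99041244-99054392 of the mouse genome (GRCm38/mm10; ENSMUSG00000017493). Its promoter is shown because this gene held the largest share of the binding protein RNA and had the strongest difference. The 250 bases before its RefSeq start site (GRCm38.p6, chr11:99040994-99041243, plus strand), written 5′ to 3′ with the TATA box motif in capitals, were:
Igfbp4: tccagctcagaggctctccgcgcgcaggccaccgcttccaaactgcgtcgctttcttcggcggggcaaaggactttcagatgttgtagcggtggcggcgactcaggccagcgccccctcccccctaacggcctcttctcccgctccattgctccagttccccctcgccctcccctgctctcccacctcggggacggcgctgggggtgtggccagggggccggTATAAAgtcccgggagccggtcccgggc
The motif, TATAAA, began 28 bases before the start site, and 7.59% of all 32851 RefSeq promoter windows of the same length held it on the strand of their gene. The core of the sites that hypoxia-inducible factors (HIFs) recognise was searched as ACGTG or GCGTG on both strands and was not found in this window. A match, or its lack, describes only these letters.

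In hypoxia, Igfbp4 stood at 4964, 5175, 5055 and 5435 CPM in replicates 1 to 4, and in normoxia at 2842, 3286, 2872 and 3123 CPM. Every hypoxia sample was above every normoxia sample. Igfbp4 fell by 0.77 on the log2 scale in normoxia (SE 0.08, adjusted p = 9.9e-05), so that its level in hypoxia was 1.70-fold that in normoxia. Differences within replicate numbers ran from -0.82 to -0.66, lower in normoxia in 4 of 4. Igfbp4 took 0.50% ± 0.03 of all counts in hypoxia and 0.31% ± 0.02 in normoxia (SD, n = 4), and went from rank 14 to rank 18 by CPM without length correction. Counting Igfbp4 itself, 15 genes were at least as abundant over all samples. Of these, 4 passed the test as lower in normoxia, and none but Igfbp4 had as low a difference. By p-value it stood at rank 105 of the 14369 genes.

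The binding protein genes that rose in normoxia were Igfbp2 and Igfbp7. Igfbp2 encodes a binding protein that is made by many mesenchymal cells and also binds integrins, and Igfbp7 encodes a secreted matrix-associated member with low affinity for IGFs. Igfbp2 is annotated at chr1:72824503-72852474 on the plus strand (ENSMUSG00000039323) and Igfbp7 at chr5:77349240-77408041 on the minus strand (ENSMUSG00000036256). Their promoters are shown beside that of Igfbp4 because these genes moved in the opposite direction. The 250 bases before the start site are those of the first of 2 RefSeq entries for Igfbp2 (chr1:72824230-72824479, plus strand) and of the Igfbp7 entry (chr5:77408046-77408295, minus strand), both GRCm38.p6 and written 5′ to 3′ in the direction of transcription, with the HIF core motifs of either strand in capitals:
Igfbp2: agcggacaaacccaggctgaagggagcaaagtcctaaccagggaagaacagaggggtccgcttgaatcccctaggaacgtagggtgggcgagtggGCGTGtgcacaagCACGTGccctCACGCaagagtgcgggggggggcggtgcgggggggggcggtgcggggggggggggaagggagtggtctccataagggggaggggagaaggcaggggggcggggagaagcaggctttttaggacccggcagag
Igfbp7: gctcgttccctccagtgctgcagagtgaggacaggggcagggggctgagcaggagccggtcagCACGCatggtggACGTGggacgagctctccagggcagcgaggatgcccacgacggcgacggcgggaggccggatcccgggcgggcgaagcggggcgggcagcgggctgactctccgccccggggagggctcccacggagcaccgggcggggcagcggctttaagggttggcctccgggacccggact
The Igfbp2 window held 4 HIF core matches, starting 155, 142, 141 and 132 bases before the start site, of which the middle pair overlap in the palindrome CACGTG. The Igfbp7 window held 2, at 187 and 175 bases before the start site. Among the other members, 1 match was found for Igf1, 3 for Igf1r, 2 for Igfbp3 and 3 for Irs1, and none for Igfbp5, Igfbp6 or the second Igfbp2 entry. Of all promoter windows of this length, 38.6% held at least 1 match. Their median GC content was 52.4%, against 67.2% in the printed Igfbp2 window and 74% in that of Igfbp7. The matches were not adjusted for GC content.

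Igfbp2 stood at 715, 692, 607 and 634 CPM in hypoxia and at 888, 983, 809 and 815 CPM in normoxia. All normoxia samples were above all hypoxia samples, and it was higher in 4 of 4 replicate numbers. The difference was 0.40 on the log2 scale (SE 0.08, adjusted p = 0.0023). Igfbp7 showed a similar pattern, with 133, 156, 123 and 130 CPM in hypoxia and 193, 204, 179 and 177 CPM in normoxia. Its groups did not overlap either, and the difference was 0.48 (SE 0.08, adjusted p = 7.1e-04), a 1.39-fold higher level. Igfbp7 shares 85 exonic bases with Polr2b on the opposite strand, and whether the counting used strand is not stated.

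Igfbp2 and Igfbp5 lie tail to tail on chromosome 1, with 5457 bases between their annotated ends (Igfbp5, minus strand, chr1:72857932-72874884, ENSMUSG00000026185). Igfbp5 encodes a binding protein that is stored in bone matrix. It stood at 638, 625, 655 and 729 CPM in hypoxia and at 601, 529, 638 and 643 CPM in normoxia. The groups overlapped, although the normoxia sample was the lower one in 4 of 4 replicate numbers. The difference of -0.14 (SE 0.08) did not pass the test (adjusted p = 0.19), and passed it with the replicate number as a block (SE 0.05, adjusted p = 0.027). In that fit 7 of the 10 members passed, beside 46.0% of all genes tested. Per length, the ratio of Igfbp2 to Igfbp5 was 3.27 ± 0.41 in hypoxia and 4.77 ± 0.91 in normoxia (SD, n = 4).

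Igfbp6 encodes the binding protein that prefers IGF2 to IGF1 (chr15:102144362-102149511, plus strand, ENSMUSG00000023046). It stood at 305, 305, 315 and 311 CPM in hypoxia, a narrow range, and at 305, 259, 269 and 247 CPM in normoxia. Normoxia replicate 1 lay within the hypoxia range and the other three normoxia samples lay below it. The difference was -0.20 (SE 0.07, adjusted p = 0.036). With the replicate block the adjusted p was 0.0041. Of 8 fits without the block that left out 1 sample each, the call passed in 2. These were the fits without hypoxia replicate 1 (adjusted p = 0.041) or normoxia replicate 1 (adjusted p = 0.0052). The call was lost without any of the others (highest adjusted p = 0.098). A correction for GC content and length turned the difference to 0.09 (adjusted p = 0.38).

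Igfbp3, the main carrier of IGFs in serum, was the least abundant binding protein gene of the 6 (chr11:7206086-7213923, minus strand, ENSMUSG00000020427). It stood at 24.2, 47.5, 26.9 and 39.0 CPM in hypoxia and at 24.8, 47.5, 32.9 and 42.6 CPM in normoxia. The order of the replicate numbers was the same in both groups, with replicate 1 lowest and replicate 2 highest. The spread among replicates exceeded the difference between oxygen levels, which was 0.11 (SE 0.22, adjusted p = 0.74). Without hypoxia replicate 1 the difference was -0.04, and without normoxia replicate 2 it was -0.03. Both the correction for GC content and length and the replicate block were needed for Igfbp3 to pass (0.18, adjusted p = 0.028).

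The makeup of the binding protein RNA was then compared, with each gene as a share of the summed CPM per kb of Igfbp2 to Igfbp7. Igfbp4 held 57.3% ± 1.26 in hypoxia and 41.1% ± 1.92 in normoxia (SD, n = 4). Igfbp2 went the other way, from 17.6% ± 1.34 to 28.3% ± 1.33, and so did Igfbp7, from 5.50% ± 0.51 to 9.33% ± 0.29. The shares of Igfbp6 (13.6% ± 0.49 and 14.6% ± 1.54), Igfbp5 (5.41% ± 0.33 and 6.04% ± 0.78) and Igfbp3 (0.54% ± 0.16 and 0.70% ± 0.18) differed by less. The ratio of Igfbp4 to Igfbp2 per length was 2.91, 3.13, 3.48 and 3.59 in the hypoxia samples and 1.34, 1.40, 1.48 and 1.60 in the normoxia samples. The sum of all 6 genes ranged from 1976 to 2095 CPM per kb in hypoxia and from 1596 to 1782 in normoxia. Set against Igf1, the binding protein sum was 109 ± 16.3 times the level of Igf1 per length in hypoxia and 71.9 ± 2.66 times in normoxia (SD, n = 4). These shares and ratios restate the single genes above, so no test was made on them.

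**Figure D3:**
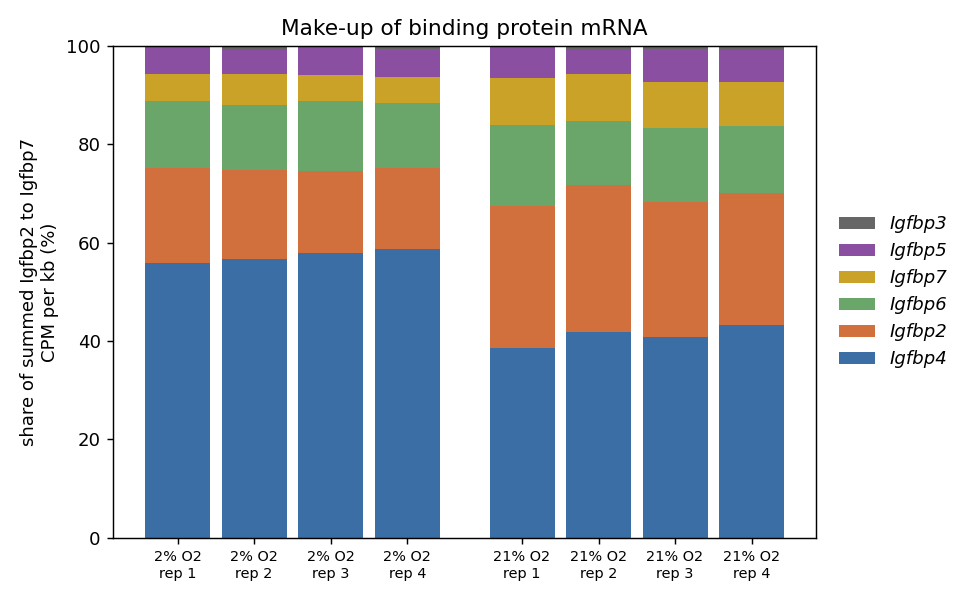
Share (%) of the summed CPM per kb of Igfbp2 to Igfbp7 held by each gene, with 1 stacked bar per sample, the 4 hypoxia samples on the left and the 4 normoxia samples on the right. Igfbp4 is at the bottom of each bar and takes 57.3% on average in hypoxia and 41.1% in normoxia, while the Igfbp2 part widens from 17.6% to 28.3%.

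Igf1, the ligand gene, is annotated at chr10:87858265-87937042 on the plus strand (ENSMUSG00000020053). It stood at 210, 213, 170 and 161 CPM in hypoxia and at 241, 245, 218 and 217 CPM in normoxia. The lowest normoxia sample was above the highest hypoxia sample, and the gene was higher in normoxia in 4 of 4 replicate numbers. The difference was 0.30 on the log2 scale (SE 0.09, adjusted p = 0.025), a 1.23-fold higher level. With the replicate block its adjusted p was 5.0e-05. Without the block, the call was lost in 4 of 8 fits that left out 1 sample each (adjusted p from 0.067 to 0.083). Those 4 fits were without hypoxia replicate 3 or 4, or without normoxia replicate 1 or 2. A correction for exonic GC content and length also removed the call and left a difference of 0.07 with the replicate block (adjusted p = 0.22) and without it (adjusted p = 0.57).

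GC content moved with oxygen level over all genes. The log2 difference had a Spearman rho of -0.39 with the GC content of the longest transcript across 14353 genes (which are not independent). In each sample, the deviation of log2 CPM from the gene's mean over all samples was set against GC. Its slope per 10% of GC ranged from 0.07 to 0.18 in hypoxia and from -0.14 to -0.09 in normoxia. These slopes are relative to the mean of all samples and do not give the trend of log2 CPM itself with GC. The longest transcript of Igf1 has a GC content of 38.0%, and those of Igfbp2, Igfbp6 and Igfbp7 of 62.1%, 60.7% and 58.8%. With the correction and the block, Igfbp2 and Igfbp7 differed by 0.68 (adjusted p = 6.7e-14) and 0.73 (adjusted p = 3.1e-13), and Igfbp4 by -0.67 (adjusted p = 1.9e-12). In that fit 6 of the 10 members passed, 3 in each direction, beside 43.2% of all genes tested (21.7% higher, 21.5% lower). Which of the corrected and uncorrected values is closer to the RNA in the cells was not tested.

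**Figure D4:**
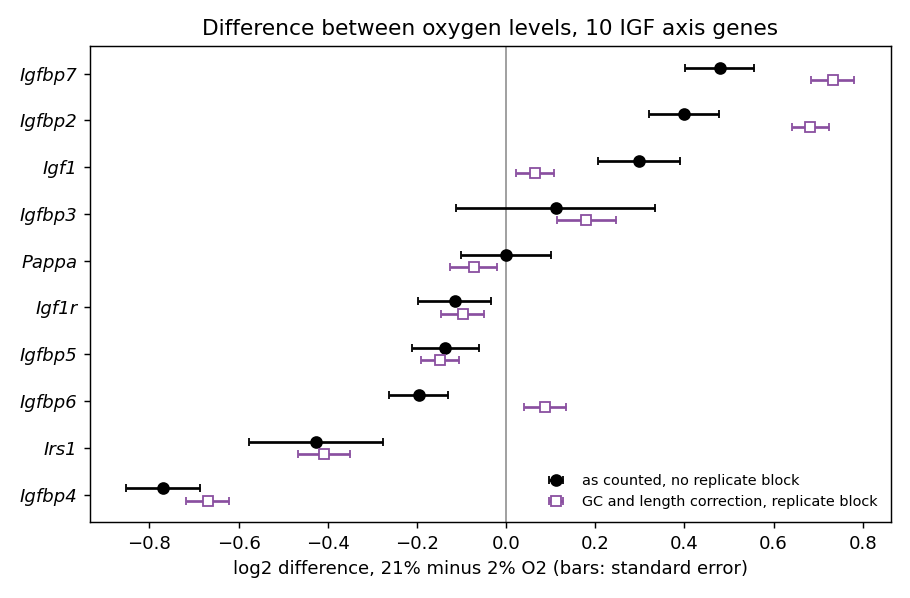
log2 difference (normoxia minus hypoxia) of the 10 genes with its standard error, as counted and without a replicate block (filled circles) and after correction for GC and length with the block (open squares). Igfbp4 stays near -0.77 and -0.67, Igfbp2 and Igfbp7 lie further to the right with the correction, and Igf1 moves from 0.30 to 0.07.

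Markers of macrophages and other blood cells, which the sort was meant to exclude, were read beside Igf1, since macrophages also make IGF1. Of the 13 genes listed, Hba-a1, Hbb-bs and Cd3e were at 0 in every sample, whereas macrophage genes were present. The summed level of the list was 520 to 1052 CPM in hypoxia and 616 to 1156 CPM in normoxia. Lyz2 was the largest part of this sum, at 354 CPM on average in hypoxia and 523 CPM in normoxia. The median difference of the 8 genes tested was -0.27, opposite to Lyz2. Of 8 genes tested, Lyz2 was higher in normoxia (0.56, SE 0.17, adjusted p = 0.022) and C1qa was lower (-0.77, SE 0.27, adjusted p = 0.046), while Ptprc, which encodes CD45, differed by 0.08 (SE 0.23, adjusted p = 0.81). After the GC and length correction, C1qa differed by -0.49, and its adjusted p was 0.17 in the unblocked fit. Adding the replicate block to that correction gave C1qa an adjusted p of 2.8e-08. In the blocked fit of the uncorrected values, 1 of the 8 genes tested was higher (Lyz2) and 4 were lower (Csf1r, Cd68, Itgam and C1qa). Of all genes tested, 23.3% were higher and 22.7% lower in that fit. The part of these cells in the Igf1 values was not tested.

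The receptor gene Igf1r (chr7:67952827-68233668, plus strand, ENSMUSG00000005533) stood at 191, 153, 179 and 154 CPM in hypoxia and at 167, 145, 148 and 163 CPM in normoxia. The groups overlapped and the difference of -0.12 (SE 0.08) did not pass (adjusted p = 0.30). Irs1 (chr1:82233101-82291416, minus strand, ENSMUSG00000055980), which encodes the docking protein, stood at 80.0, 104, 96.9 and 91.5 CPM in hypoxia and at 47.7, 77.1, 71.4 and 85.9 CPM in normoxia. It was lower in normoxia in 4 of 4 replicate numbers, but normoxia replicate 4 lay above hypoxia replicate 1. Irs1 fell by 0.43 on the log2 scale (SE 0.15, adjusted p = 0.044), and the call passed in 3 of 8 fits that left out 1 sample each, those without hypoxia replicate 1 or without normoxia replicate 2 or 4. It was lost without any of the remaining libraries (highest adjusted p = 0.11). Normoxia replicate 1 was the lowest sample, and without it the difference was -0.26. With the replicate block and all samples, Irs1 had an adjusted p of 3.6e-05. With the GC and length correction added to the block, its difference was -0.41 (adjusted p = 1.1e-06). Gm9747, which overlaps 2822 exonic bases of Irs1 on the other strand, had 0 counts in all samples. Whether the counting used strand is not stated, so these counts cannot tell whether reads of Irs1 were lost to the overlap. Irs2, the related docking protein gene, differed by -0.08 (adjusted p = 0.69).

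Pappa, the gene of the IGFBP4 protease (chr4:65124174-65357509, plus strand, ENSMUSG00000028370), stood at 85.7, 105, 89.2 and 87.0 CPM in hypoxia and at 73.9, 94.7, 104 and 96.2 CPM in normoxia. It was higher in normoxia in 2 of 4 replicate numbers, and the difference was 5.2e-04 (SE 0.10, adjusted p = 1.00). Its groups overlapped. Stanniocalcin-1, encoded by Stc1, is an inhibitor of pappalysins. Stc1 stood at 6.60, 5.86, 5.00 and 5.62 CPM in hypoxia and at 16.1, 9.44, 12.3 and 9.19 CPM in normoxia, with no overlap. It rose by 0.97 on the log2 scale (SE 0.17, adjusted p = 0.0013), while Stc2, the gene of the second stanniocalcin, differed by -0.31 (SE 0.16, adjusted p = 0.15, or 0.034 in the blocked fit). The ratio of Stc1 to Stc2 per length was 0.67 ± 0.11 in hypoxia and 1.69 ± 0.35 in normoxia (SD, n = 4). Pappa2, the gene of the second pappalysin, was named after its values were seen: it differed by -0.29 (SE 0.18, adjusted p = 0.24, and 0.0016 with the replicate block).

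Beyond the 10 members, 63 further genes of the pathway were listed in 6 groups, of which 59 were tested. Of these, 13 were higher and 11 lower in normoxia, with a median difference of -2.3e-04, and the groups did not overlap for 23. Over all genes tested, as above, these shares were 18.0% higher, 16.5% lower and 32.6% without overlap, and they are also the background of the counts per list that follow. Insrr, Igfbp1, Igfbpl1 and Irs4 had too few counts to be tested. Among other ligands, receptors and carriers, 1 of 5 genes tested changed: Igf2, the second ligand gene, had 46, 36, 23 and 44 counts in hypoxia and 15, 11, 9 and 21 in normoxia. These are few counts, and Igf2 fell by 1.14 on the log2 scale (SE 0.28, adjusted p = 0.0079). Per length, Igf1 was 47.0 ± 15.5 times as high as Igf2 in hypoxia and 144 ± 52.5 times in normoxia (SD, n = 4). The insulin receptor gene Insr differed by 0.19 (SE 0.09, adjusted p = 0.11), and passed with the replicate block (adjusted p = 0.042).

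Of 7 genes for proteases of binding proteins and their inhibitors, 3 were higher and none lower, and with the replicate block 3 were higher and 2 lower (Stc2 and Pappa2). The 3 were Stc1, Ctsd (0.50, SE 0.07, adjusted p = 4.6e-04), which encodes the lysosomal protease cathepsin D, and Htra1 (0.22, SE 0.07, adjusted p = 0.030), which encodes a secreted serine protease. The difference of Htra1 was 0.39 with the GC and length correction (adjusted p = 0.0020 without the block). Htra1 passed in 3 of 8 fits that left out 1 sample each, those without hypoxia replicate 1 or 3 or normoxia replicate 2, and was lost in the others (highest adjusted p = 0.12). Of 10 adaptor and phosphatase genes next to the receptor, 4 were higher and 1 lower. Grb14, an adaptor that inhibits the insulin receptor, was higher (0.47, SE 0.09, adjusted p = 0.0015), but by 0.25 with the GC and length correction (adjusted p = 0.041 without the block). Also higher was Sos1, an exchange factor for RAS (0.31, SE 0.07, adjusted p = 0.0059), although Sos1 kept only 0.11 with that correction (adjusted p = 0.18 without the block and 0.15 with it). The docking protein gene Gab1 was lower (-0.41, SE 0.09, adjusted p = 0.0043).

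Downstream, 2 of 14 PI3-kinase and AKT genes were higher and 4 lower. Trib3, a pseudokinase gene whose product binds AKT, fell by 0.68 (SE 0.05, adjusted p = 2.7e-05) and Akt2 fell by 0.35 (SE 0.05, adjusted p = 6.0e-04). Pik3r3, a regulatory subunit gene of PI3-kinase, was higher by 0.47 (SE 0.07, adjusted p = 5.1e-04), or by 0.30 with the GC and length correction (adjusted p = 0.0056 without the block). In the TSC and mTOR list, 4 of 14 genes were higher and 4 lower. Here the S6 kinase gene Rps6kb1 (0.45, SE 0.08, adjusted p = 0.0016) and Tsc1 (0.43, SE 0.10, adjusted p = 0.0071), an inhibitor of mTOR complex 1, were higher, and the translation repressor gene Eif4ebp1 was lower (-0.42, SE 0.09, adjusted p = 0.0033). Tsc2, named after its values were seen, went against Tsc1 and was lower (-0.34, SE 0.05, adjusted p = 5.2e-04). Corrected for GC and length, Rps6kb1 was higher by 0.22 (adjusted p = 0.038 without the block). Activators and inhibitors of the pathway were thus found in both directions. Of 9 FOXO factors and FOXO-induced genes, Foxo3 alone passed (-0.37, SE 0.07, adjusted p = 0.0024), and Foxo1 differed by -0.05 (adjusted p = 0.68). With the replicate block 3 of the 9 were lower, the added ones being Sesn1 (adjusted p = 0.013) and Pik3ip1 (adjusted p = 0.024), named after their values were seen. With the GC and length correction added to the block, 5 of the 9 were lower, beside 21.5% of all genes tested. Pik3ip1 did not pass in that fit (adjusted p = 0.11). With the replicate block, the 59 genes gave 16 higher and 19 lower, where all genes gave 23.3% higher and 22.7% lower.

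**Figure D5:**
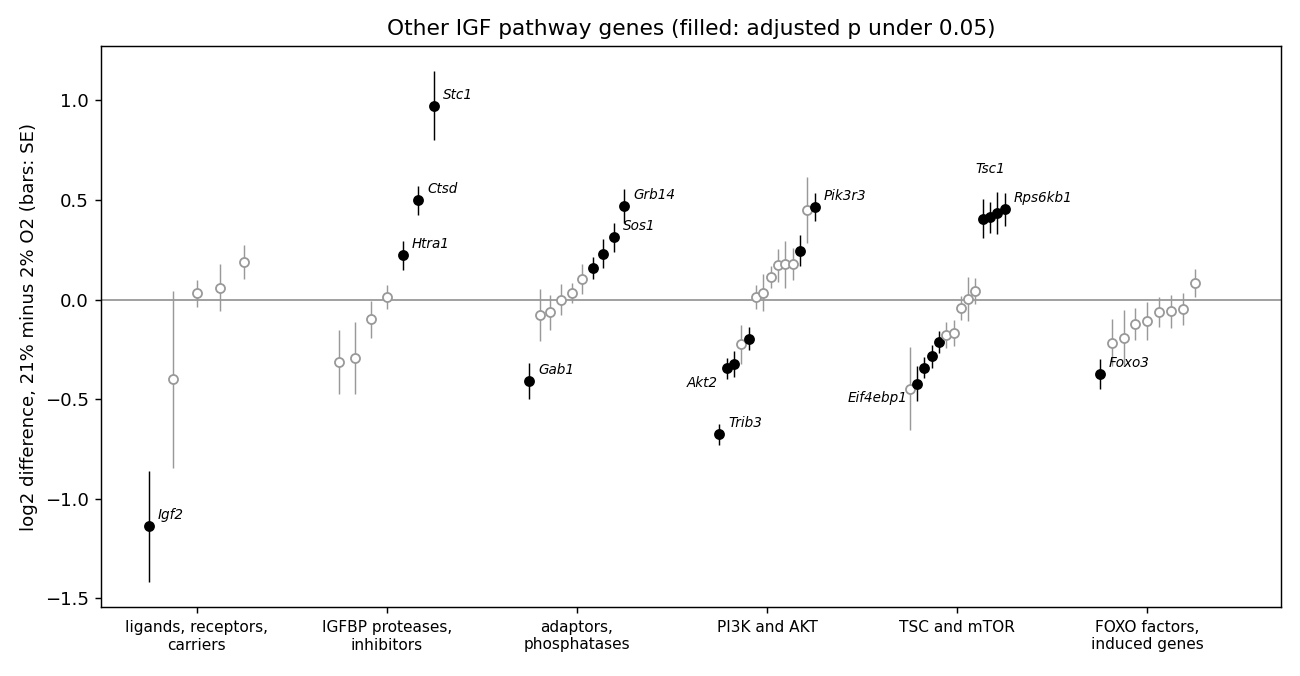
log2 difference (normoxia minus hypoxia) with its standard error for the 59 other IGF pathway genes tested, in 6 lists. Filled points passed at an adjusted p under 0.05 and those named in the text, apart from Tsc2, are labelled. Filled points lie on both sides of 0 in the adaptor, PI3-kinase and AKT, and TSC and mTOR lists, and the extremes are Igf2 at -1.14 and Stc1 at 0.97.

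Finally, the genes most like Igf1 and Igfbp5 were sought by Pearson's r of log2 CPM over the 8 samples, among 9394 genes of sufficient level. The values of Cemip, which encodes a hyaluronan-depolymerising protein, followed those of Igf1 most closely (r = 1.00), before Lima1 (r = 0.99), an actin-binding protein gene, and Ndrg4 (r = 0.98). After removal of the group means, r was 1.00, 0.98 and 0.97 for these genes, so the likeness did not rest on the group means alone. For Igfbp5 the closest genes were Rgl3 (r = 0.99), Ncoa5 (r = 0.94) and Telo2 (r = 0.93). These are descriptions over 8 samples that share the oxygen groups and replicate numbers, and the highest of many r values is high by selection.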

How the data were processed

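Total RNA of cultured bone MSCs was sequenced as single-end libraries, 4 per oxygen level. The authors ran zUMIs (with STAR, samtools and featureCounts) against the GRCm38 (mm10) genome and its Ensembl annotation, and deposited raw counts per gene. Whether the counting used strand, introns or multiply mapped reads is not given in the sources used here. Groups and replicate numbers came from the sample labels. The study calls the RNA-seq replicates biologically independent. Whether each was a separate animal or culture is not given, so p-values measure the spread between these samples. The 10 members and the gene lists were chosen with earlier results of these data known.

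Symbols were assigned from GENCODE M21 (53360 identifiers; the others held 0.00364% of counts). Genes were kept by edgeR's (4.0.16) filterByExpr with a minimum count of 5, scaled by TMM and tested on log2 CPM (prior count 3) by limma-trend (limma 3.58.1, R 4.3.3), normoxia against hypoxia over all 8 samples, two-sided, with Benjamini-Hochberg adjustment over 14369 genes and a threshold of 0.05. The script was tested on simulated data. Alternatives were edgeR's quasi-likelihood test, DESeq2 (1.42.0), limma-voom, other scalings, filters, prior count and threshold, samples left out, a replicate block, and a correction for GC content and length (natural splines with 5 degrees of freedom per sample). Same-numbered samples deviated together (r of deviations from group means 0.47, 0.28, 0.25 and 0.17 over genes), and the study divided sorted cells between the conditions. The numbers were therefore read as pairs in the differences within replicate numbers and in the fits with the replicate block. The main test held no term for the replicate number and did not use this pairing.

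Depth was 12898291 to 25132141 counts, and 3 counts, the upper limit that a count of 0 allows, equal 0.125 to 0.241 CPM (counting error only). Lengths for CPM per kb are of merged exons. GC content, and the length used in the GC and length correction, are of the longest transcript of each gene. Promoters came from RefSeq (GRCm38.p6), which matched 9 of 10 members. From each pathway list, up to 3 genes past the threshold with the largest absolute difference were named, plus Igf2, Insr, Irs2, Stc1, Stc2 and Foxo1, and the 3 genes (mean log2 CPM of at least 3) with the highest r with Igf1 and with Igfbp5. Pappa2, Tsc2, Sesn1 and Pik3ip1 were added after their values were seen. The value of 1 gene of the blood cell marker list is not reported here by itself.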

Additional observations from a re-analysis of the deposited data

Results flagged for a closer look

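The library of hypoxia replicate 1 held 25132141 counts, against 12929564 to 13219647 in the other hypoxia libraries, and its gap to the nearest hypoxia sample was 0.976 of the range of that group, above Dixon's 95% critical value for 4 samples. Of 26 sets of 4 values searched this way (the totals, the members and related values), 1 was found, where chance gives about 1.3. Without this library 6 of 10 members passed.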

How the results depend on the processing

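Igfbp2, Igfbp4 and Igfbp7 kept their direction and call under all 22 alternatives, with ranges of 0.33 to 0.68, -0.82 to -0.67 and 0.43 to 0.73. At a threshold of 0.01, 3 members passed, 1 of them lower, beside 20.4% of all genes (10.8% higher, 9.60% lower), and Igf1 (0.30), Igfbp6 (-0.20) and Irs1 (-0.43) did not. Scaling by library totals left 1 member lower, with Igfbp6 at -0.11 and Irs1 at -0.34 no longer passing, and turned Foxo1 to 0.041 and Irs2 to 0.010. Without a filter 1 member was lower, with Igfbp6 at -0.20 and Irs1 at -0.43 not passing. With edgeR, Irs1 (-0.40, adjusted p = 0.052) did not pass. The GC and length correction, with and without the replicate block, gave 0.066 for Igf1, which no longer passed, and reversed Igfbp6 (0.087), Pappa (-0.072), Irs2 (0.058) and Ncoa5 (0.0043). With the correction and the block, Igfbp3 (0.18) and Igfbp5 (-0.15) passed. The replicate block alone brought Igfbp5 (-0.14) past the threshold, also without replicate 1 of both groups (-0.16), and raised the lower pathway genes from 11 to 19, or 20 with the correction; among the members it changed no other call. Pappa, near 0, was -0.0026 with DESeq2, -0.0096 with RLE scaling and -3.0e-04 without a filter. Shares of CPM without length gave Igfbp4 74.1% in hypoxia and 60.5% in normoxia, Igfbp2 9.52% and 17.5%, Igfbp5 9.50% and 12.1%, Igfbp6 4.44% and 5.42%, and Igfbp7 1.95% and 3.77%, so that Igfbp5 stood above Igfbp6.

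Leaving out 1 sample at a time gave 3 to 6 members changed, 2 to 3 higher and 1 to 3 lower. The count was 3 without hypoxia replicate 3 or 4, and 1 member was lower without hypoxia replicate 2, 3 or 4 or normoxia replicate 3. Of the other pathway genes, 20 to 28 changed, 9 to 14 higher and 10 to 14 lower. The share of all genes passing is not given here for fits with samples left out, with other scalings or without a filter. The counts of members and pathway genes in those fits are therefore not set against a background. The differences ranged from 0.23 to 0.36 for Igf1, -0.038 to 0.28 for Igfbp3, -0.27 to -0.17 for Igfbp6, -0.54 to -0.26 for Irs1, -0.068 to 0.090 for Pappa and -0.10 to 5.5e-04 for Foxo1. The cause of these changes was not tested. At this depth all members are well counted and the spread between samples sets their error, whereas Igf2 is limited by its few counts.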

Other observations

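Further ratios per length were read, without a test. Pappa2, whose product cleaves IGFBP3 and IGFBP5, was 35.8, 34.0, 28.8 and 20.9 times as high as Stc1 in hypoxia and 8.99, 16.7, 11.1 and 12.3 times in normoxia, so that the groups did not overlap. Irs1 was 4.59, 4.26, 3.88 and 4.44 times as high as Irs2 in hypoxia and 2.02, 3.54, 3.72 and 4.81 times in normoxia, with normoxia replicate 4 above every hypoxia sample and normoxia replicate 1 below all others.

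Of the other marker lists, 5 endothelial genes summed to 1.62 to 2.65 CPM in hypoxia and 1.28 to 2.09 CPM in normoxia, with Emcn at 0 in every sample. The 5 adipocyte genes summed to 4.01 to 14.6 and 5.26 to 8.82 CPM, with Lep at 0. The 5 mature osteoblast genes summed to 505 to 647 CPM in hypoxia and 596 to 790 CPM in normoxia, a sum held mostly by Spp1 (0.54, adjusted p = 0.0024). Of the 4 tested, Spp1 was higher and Alpl lower (-0.48, adjusted p = 0.0083), beside 18.0% higher and 16.5% lower of all genes tested. The median difference of the 4 was -0.46, opposite to the sum. The 10 MSC genes summed to 85681 to 94740 CPM in hypoxia and 59301 to 63952 CPM in normoxia, a sum held mostly by the collagen genes Col1a1 (-0.74, adjusted p = 0.0038) and Col1a2 (-0.34, adjusted p = 0.078). Of these 10 genes, 3 were higher in normoxia (Nt5e, Cd44 and Itgb1, by 0.59, 0.72 and 0.44) and 2 were lower (Col1a1 and Eng). The shares of all genes tested were again 18.0% higher and 16.5% lower. With the replicate block 4 of the 10 were higher and 6 lower, beside 23.3% and 22.7% of all genes tested.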
